A study of Mus musculus with 8 samples.

Results

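The genes described here encode the machinery that makes microRNAs (miRNAs) and uses them to silence messenger RNAs. They were taken by name: Drosha, Dgcr8, Xpo5, Dicer1, Tarbp2, Prkra, Ago1, Ago2, Tnrc6a and Mov10. All 10 were on the array, out of 32053 genes and unnamed transcripts in all, and they were read by 19 probes. The transcript accession that the array lists for each probe was matched to current RefSeq symbols. Every one of the 19 probes was well above background in the sample channel on all 8 arrays.

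A miRNA begins as a hairpin in a long primary transcript. In the nucleus, Drosha and its partner Dgcr8 form the Microprocessor, which cuts the hairpin out, and exportin 5 (Xpo5) carries it to the cytoplasm. There Dicer1, helped by the double-stranded RNA binding proteins Tarbp2 (TRBP) and Prkra (PACT), trims it to a short duplex. One strand is loaded into an argonaute protein and guides the silencing complex, in which Tnrc6a (GW182) calls in the enzymes that shorten and decap the target mRNA. Snd1, the protein depleted in the first experiment, has been found in that silencing complex and can cut edited miRNA precursors.

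The RNA came from mammary tumour cells of FVB mice with the polyoma middle T (PyMT) transgene, and all 8 samples had been kept in 50 uM camptothecin, a topoisomerase I poison, for 36 h. In the first experiment the wild-type tumour line WTA, selected with puromycin, carried the empty lentiviral vector LKO1 (3 arrays) or LKO1 with a short hairpin RNA against Snd1 (3 arrays). In the second, the Mtdh-knockout tumour line KO2 was given back mouse Mtdh, on 1 array in its wild-type form and on 1 array as the W391D mutant, in which a tryptophan needed for Snd1 binding is replaced. Both rescue constructs carried GFP, by which the cells were sorted. Mtdh, or metadherin, is a partner protein of Snd1. The sample RNA carried Cy5 and was hybridised against a Cy3-labelled reference pool from 11 mouse cell lines. Each level below is therefore a log2 ratio of sample over reference, and levels are compared between arrays for one probe, never between probes. Each construct was measured in 1 line only, no untreated cells were measured here, and the labels do not say whether replicates were separate cultures, so the p-values cover array-to-array spread that may be technical in origin.

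The median Cy5 signal lay between 158 and 363 and its median background between 61 and 72. Slide 1 held replicate 1 of knockdown and of vector, slide 2 held replicates 2 and 3 of both, and each rescue array had a slide of its own. All 8 epithelial markers, among them Krt8, Krt18 and Epcam, were well above background on all 8 arrays. Of these, 5 were lower and 2 higher in the knockdown. Their summed log2 Cy5 signal, not normalized between arrays, was 16.75 in the knockdown and 17.23 in the vector array of slide 1. On slide 2 it was 17.75 and 17.70 in the knockdown and 18.33 and 18.28 in the vector arrays. Of 8 fibroblast markers 6 were higher, with a summed log2 signal of 13.18 to 13.78 against 12.04 to 12.69. Of 4 adipocyte markers 2 were higher, of 4 endothelial markers 1 was higher and 2 lower, and of 6 leukocyte markers 1 was higher and 1 lower. The leukocyte marker Ptprc lay near the detection limit (mean log2 signal 6.26 and 6.24, where the dimmest spots passing the background test stood at 5.71 to 6.37). The part of these markers in the results below was not tested, and in bulk RNA fewer cells of a type cannot be told apart from less RNA per cell.

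The hairpin's target came first. Snd1 stood at -3.23, -3.33 and -3.44 in the knockdown arrays and at -2.49, -2.40 and -2.43 in the vector arrays, a 1.86-fold fall (log2 fold change -0.90 ± 0.06 SE, n = 3 and 3, limma adjusted p = 1.04e-05). An alternative, limma's scale normalization between arrays, gave a difference of 0.09 (adjusted p = 0.863). As run here, it divides the log ratios of each array by a factor taken from their median, not from their spread. That value therefore says nothing about the knockdown. Under the other 19 of 20 alternative settings Snd1 kept its call, with differences from -1.19 to -0.84. Its single probe stood at -1.92 and -1.98 in the wild-type and W391D rescue arrays.

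Knockdown against vector asked how the miRNA machinery differs, under camptothecin, in cells with less Snd1. The machinery changed in both directions. Tarbp2, Ago2 and Xpo5 rose, whereas Drosha, Mov10, Prkra, Dicer1 and Ago1 fell, and Dgcr8 did not pass the test. Tnrc6a was called higher by its brightest probe and lower by another. The fold changes were moderate: the largest were 1.77-fold for Tarbp2 upwards and 1.76-fold for Drosha downwards. By the brightest probe of each, 4 of 10 genes were called higher and 5 lower at an adjusted p under 0.05 (limma, Benjamini-Hochberg over 25674 genes). That has to be read against a background in which 23.7% of all genes tested were called higher and 21.1% lower, or 44.8% together. The median absolute log2 change was 0.46 over the 10 genes and 0.14 over all genes tested, and the median signed change was -0.20 and 0.02. For 9 of the 10 the arrays of knockdown and vector formed separate ranges, against 53.2% of all genes. None was both called and past 2-fold, as 3.79% of all genes were. Averaging the probes of each gene left 2 genes higher in place of 4. Scaling between arrays left 3 lower in place of 5, but its factors do not measure spread, so no call is judged by it.

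**Figure D1:**
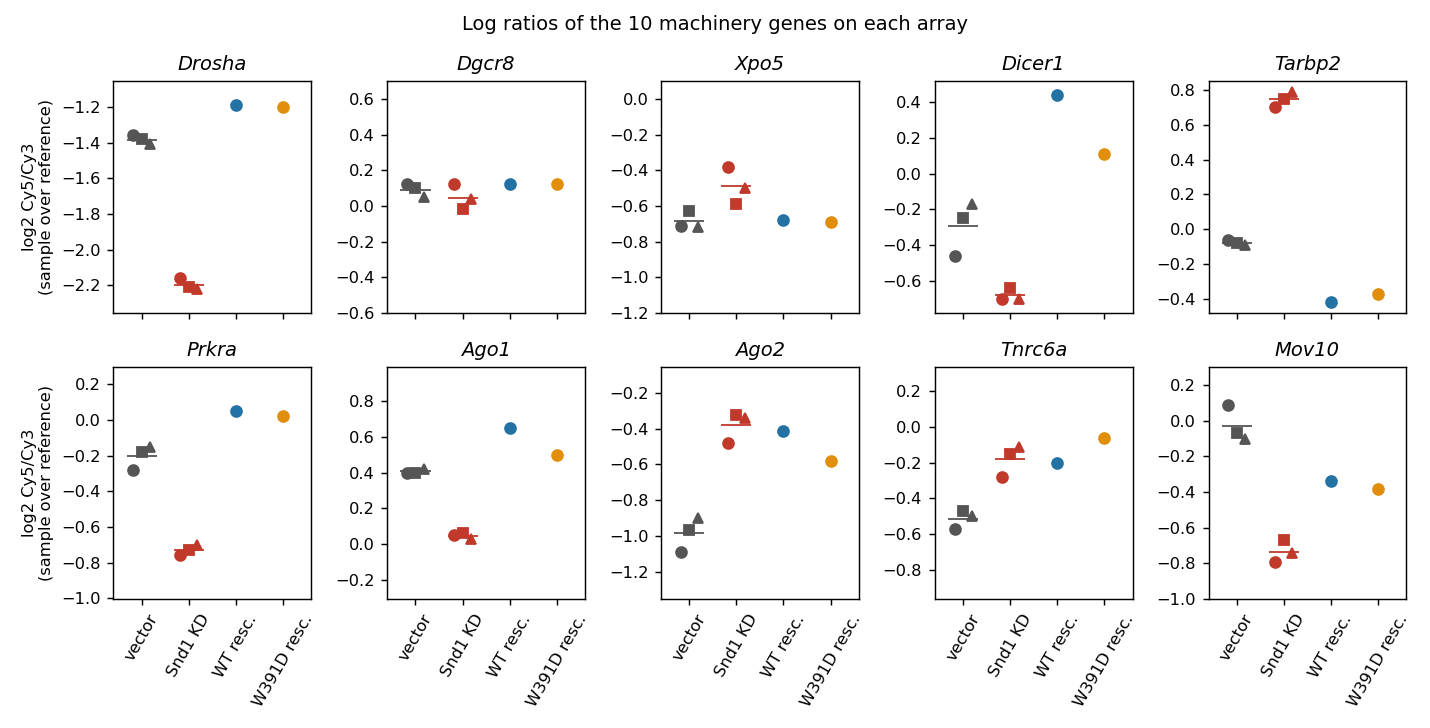
Log2 ratio of Cy5 (sample) over Cy3 (reference) for the 10 machinery genes, brightest probe of each, on the 3 vector arrays, 3 Snd1 knockdown arrays and 2 rescue arrays. Circles, squares and triangles are replicates 1, 2 and 3, lines are group means, and each panel has its own vertical axis. Drosha lies between -2.22 and -2.16 in the knockdown and between -1.41 and -1.36 in the vector arrays, while the groups of Dgcr8 overlap.

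The nuclear step came apart between its partners. Drosha, the RNase III enzyme of the Microprocessor, was at -2.16, -2.21 and -2.22 in the knockdown arrays and at -1.36, -1.38 and -1.41 in the vector arrays. Every knockdown array was below every vector array by a wide margin. The fall was 0.81 on the log2 scale (± 0.04 SE, adjusted p = 2.32e-06), and 6.24% of all genes tested changed by more. A second Drosha probe gave -0.66 ± 0.06 (adjusted p = 2.64e-05 among all probes). Scaling between arrays gave -0.22 for the brighter probe (adjusted p = 0.494), but its factors do not measure spread, so it decides nothing about Drosha. The other 19 alternatives kept the call.

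Dgcr8, the RNA-binding partner of Drosha, was at 0.12, -0.02 and 0.04 in the knockdown and at 0.12, 0.10 and 0.05 in the vector arrays. The groups overlapped. The log2 difference was -0.04 ± 0.05 (adjusted p = 0.569), and 82.0% of genes changed by more. Among the 20 alternative settings it ran from -0.14 to -0.01, without a call. The Dgcr8 transcript is itself known as a Microprocessor substrate, since it carries hairpins that Drosha cuts. RefSeq (GRCm38.p6) places 4 mature miRNAs inside the gene, on the minus strand of chromosome 16, and the capitals mark the seed, bases 2 to 8, through which a miRNA recognises its targets. They are shown because they come from hairpins released by that cut, after Dicer1 has trimmed them.
mmu-miR-1306-5p: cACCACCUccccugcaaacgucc
mmu-miR-1306-3p: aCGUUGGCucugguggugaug
mmu-miR-3618-5p: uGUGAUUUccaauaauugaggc
mmu-miR-3618-3p: cUACAUUAaugaaaagagcaau
No 2 of these seeds are the same. The array read the Dgcr8 messenger RNA, not these products.

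Xpo5, the export receptor for the hairpin, was at -0.38, -0.59 and -0.50 in the knockdown arrays and at -0.71, -0.63 and -0.72 in the vector arrays. The highest vector array lay just under the lowest knockdown array. The rise was small, 0.20 ± 0.06 (1.15-fold, adjusted p = 0.0328), and a second, dimmer probe gave 0.13 ± 0.08 (adjusted p = 0.25). The difference was 0.33 on slide 1 and 0.13 on slide 2. Of 20 alternatives, 8 ended the Xpo5 call, among them the second slide alone (adjusted p = 0.105) and leaving out knockdown replicate 1 (0.0739), knockdown replicate 3 (0.0736), vector replicate 1 (0.0778) or vector replicate 3 (0.104). Its adjusted p ran from 0.00368 to 0.507 over them.

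At the dicing step, the enzyme and one of its RNA-binding helpers fell while the other helper rose. Dicer1, which cuts the loop off the exported hairpin, was at -0.70, -0.64 and -0.70 in the knockdown and at -0.46, -0.25 and -0.17 in the vector arrays. The vector arrays were spread more widely, with replicate 1 the lowest of them, and still none reached the knockdown values. The fall was 0.38 ± 0.08 (1.31-fold, adjusted p = 0.00351), with -0.24 on slide 1 and -0.46 on slide 2. The second Dicer1 probe gave -0.22 ± 0.05 (adjusted p = 0.00467). Scaling between arrays gave -0.23 (adjusted p = 0.225), which decides nothing for the reason given for Drosha. The other 19 alternatives kept the Dicer1 call.

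Tarbp2 recruits Dicer1 to the argonaute and helps to position the cut. It was at 0.70, 0.75 and 0.79 in the knockdown arrays and at -0.06, -0.08 and -0.09 in the vector arrays, so the knockdown group stood clearly above. The rise was 0.82 ± 0.04 (1.77-fold, adjusted p = 2.58e-06), and 6.06% of genes changed by more. All 20 alternatives kept the call, with log2 fold changes from 0.74 to 0.96. Prkra, its structural relative, which also activates the kinase PKR, went the other way. It was at -0.76, -0.73 and -0.70 in the knockdown and at -0.28, -0.18 and -0.15 in the vector arrays, with no overlap. The fall was 0.53 ± 0.05 (1.44-fold, adjusted p = 5.51e-05), and it too was called under all 20 alternatives (-0.72 to -0.39). Tarbp2 and Prkra had 1 probe each.

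The argonautes also moved apart. Ago2, the mammalian argonaute that can slice its target, was at -0.48, -0.32 and -0.34 in the knockdown and at -1.09, -0.97 and -0.90 in the vector arrays. The groups were far apart, and the rise was 0.61 ± 0.07 (1.52-fold, adjusted p = 0.000126). Its other probes gave 0.51 ± 0.06 and 0.31 ± 0.07, both called. Ago1, which takes part in silencing and is known to slice poorly, was at 0.05, 0.06 and 0.03 in the knockdown and at 0.40, 0.40 and 0.42 in the vector arrays. The replicates were tight (SD 0.01 in both groups) and the groups apart. The fall was 0.36 ± 0.04 (1.29-fold, adjusted p = 0.000134), and the other Ago1 probes gave -0.28 ± 0.07 (adjusted p = 0.00863) and -0.08 ± 0.04 (adjusted p = 0.178). Both genes were called under all 20 alternatives, Ago2 from 0.48 to 0.87 and Ago1 from -0.49 to -0.24. The remaining argonautes, Ago3 and Ago4, are not among the 10. Their brightest probes gave -0.27 ± 0.05 and 0.26 ± 0.06, but second probes gave 0.03 for Ago3 and a called -0.26 for Ago4, so no direction can be given for Ago4.

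Downstream of the argonaute, Tnrc6a is the scaffold that links it to the deadenylases. By its brightest probe it was at -0.28, -0.15 and -0.11 in the knockdown and at -0.57, -0.47 and -0.50 in the vector arrays, a rise of 0.34 ± 0.06 (adjusted p = 0.00181). A second Tnrc6a probe, assigned to the same transcript accession, was at -1.69, -1.58 and -1.61 against -1.07, -1.0 and -1.02, a fall of 0.60 (± 0.05 SE, adjusted p = 1.96e-05). Neither probe's groups overlapped, and they pointed in opposite directions. The third gave -0.10 ± 0.05 (adjusted p = 0.114), and the mean of all 3 gave -0.12 ± 0.05 (adjusted p = 0.0742). The first probe stayed positive (0.24 to 0.47) and the second negative (-0.79 to -0.17) under each of the 14 alternatives computed for single probes. The rise of Tnrc6a is therefore a statement about 1 probe, and no direction can be given for the gene.

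Mov10, an RNA helicase that associates with argonautes and restricts retroelements and viruses, was at -0.79, -0.67 and -0.74 in the knockdown and at 0.09, -0.07 and -0.10 in the vector arrays. All 3 knockdown arrays were below all vector arrays. The fall was 0.70 ± 0.06 (1.63-fold, adjusted p = 4.09e-05), with -0.88 on slide 1 and -0.62 on slide 2. From the Cy5 channel alone the log2 difference was -0.78 ± 0.26 (adjusted p = 0.0621). Mov10, like Dgcr8, was read by 1 probe only.

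**Figure D2:**
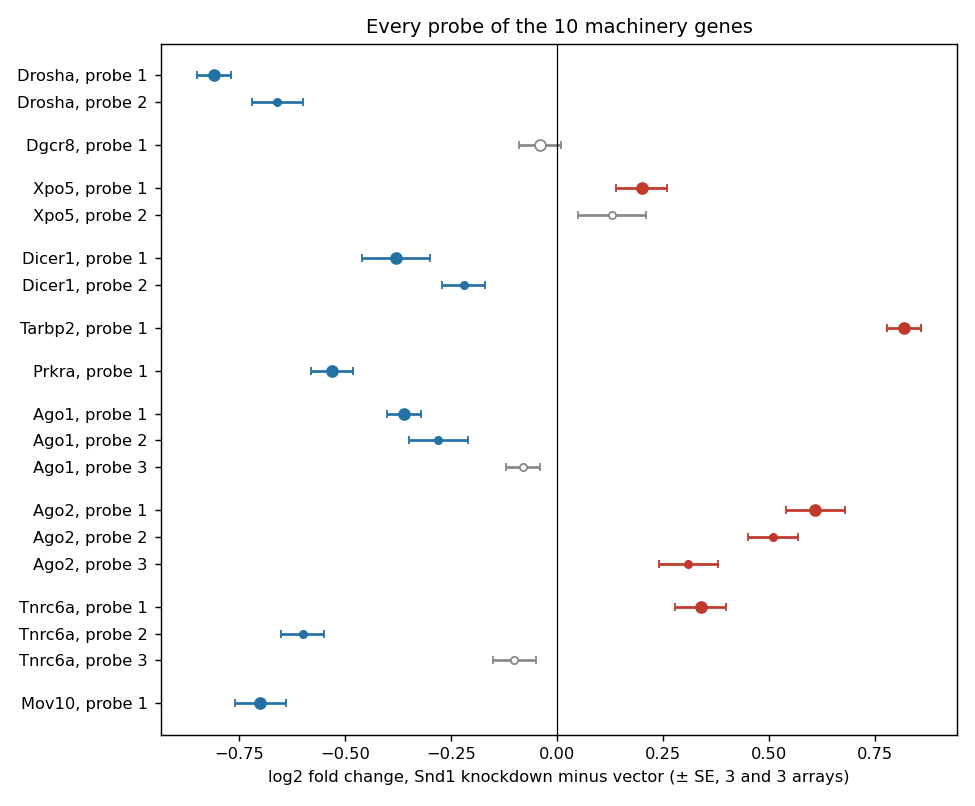
Log2 fold change, Snd1 knockdown minus vector, with its SE, for each of the 19 probes (3 and 3 arrays). Probe 1 is the brightest of its gene (larger point), red is called higher, blue called lower, and open grey not called. The probes of Drosha, Dicer1 and Ago2 lie on one side of 0, while those of Tnrc6a lie at 0.34, -0.60 and -0.10.

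Taken probe by probe, in a fit in which every probe of the array was its own feature, 6 of the 19 probes were called higher and 9 lower, where 23.6% and 22.1% of all 33564 probes tested were (45.7% together). Of the 6 genes with more than 1 probe, Drosha, Dicer1 and Ago2 had every probe called in one direction. Xpo5 and Ago1 each had a dimmer probe of the same sign that did not pass. Tnrc6a was the exception described above.

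Drosha and Tarbp2 changed by about the same factor in opposite directions, so their promoters are shown beside each other. The 250 bases before the RefSeq start site are printed in the direction of transcription, and the capitals mark CCAAT or its reverse complement ATTGG, a motif bound by the factor NF-Y. Drosha lies at chr15:12824565-12824814 (plus strand, GRCm38.p6) and Tarbp2 at chr15:102517942-102518191 (plus strand).
Drosha: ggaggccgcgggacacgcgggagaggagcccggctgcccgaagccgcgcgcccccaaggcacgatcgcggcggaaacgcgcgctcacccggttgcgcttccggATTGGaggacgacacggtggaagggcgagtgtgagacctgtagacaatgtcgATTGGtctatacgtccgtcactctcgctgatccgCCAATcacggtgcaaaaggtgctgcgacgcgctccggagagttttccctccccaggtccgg
Tarbp2: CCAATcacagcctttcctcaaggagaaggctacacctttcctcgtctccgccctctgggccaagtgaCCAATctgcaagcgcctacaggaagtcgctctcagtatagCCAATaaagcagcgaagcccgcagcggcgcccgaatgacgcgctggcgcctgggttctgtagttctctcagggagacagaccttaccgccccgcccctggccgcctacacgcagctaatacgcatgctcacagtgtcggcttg
Each window held 3 matches. The GC-box letters GGGCGG, searched on both strands, occurred 3 times in Tarbp2 and not in Drosha, with no base shared with a CCAAT match. Of the 9 machinery genes with a promoter in the table, 5 held CCAAT (Drosha, Dgcr8, Dicer1, Tarbp2 and Ago1), against 33.8% of 32851 windows, and 6 held GGGCGG, against 32.7%. CCAAT was thus present in genes that rose, fell or did not pass the test. A match is a string of letters and not a shown binding site.

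Other genes of the pathway were read from 7 lists, with 111 genes listed and 101 tested. Of these, 29 were called higher, 30 lower and 42 not called, with a median log2 change of 0.03. The shares are read against the same 23.7% and 21.1% as above. From the Cy5 channel alone 16 were higher, and with median centring 18 were higher. With scaling between arrays 13 were lower, a count that rests on the factors described for Snd1.

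Of 18 partners of the nuclear step 5 rose and 10 fell (median -0.17). The RNA-binding proteins Hnrnpa1 (-0.60 ± 0.04, adjusted p = 1.15e-05), which remodels certain primary hairpins, and the RNA-editing enzymes Adarb1 (-0.55 ± 0.04) and Adar (-0.43 ± 0.05) fell. Other probes gave 0.05 and -0.18 for Hnrnpa1, 0.10 for Adarb1 and -0.54 for Adar. The helicase Ddx5, a Microprocessor cofactor, rose by one probe (0.40 ± 0.05) and fell by another (-0.43 ± 0.07). Mettl3, an RNA methyltransferase (0.22 ± 0.05), and Hnrnpa2b1, a reader of its mark (0.23 ± 0.06), rose slightly.

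Among 10 tested genes that control or degrade miRNA precursors 3 rose and 4 fell (median -0.08). Zc3h12a (Regnase-1), an endonuclease that can cut hairpin precursors, rose from 0.62, 0.67 and 0.78 in the vector arrays to 1.45, 1.51 and 1.51 (0.80 ± 0.05, adjusted p = 9.24e-06). The exonucleases Eri1 (-0.59 ± 0.05) and Parn (-0.61 ± 0.05), a poly(A)-specific nuclease, fell, as did the terminal nucleotidyltransferase Tent2 (-0.48 ± 0.05). Other probes gave -0.59 and -0.24 for Eri1 and -0.15 for Parn. The uridylating enzyme Tut4 (0.25 ± 0.06) and the exonuclease Dis3l2 (0.43 ± 0.10), which act on let-7 precursors marked by Lin28, rose by their brightest probes, but other probes gave as little as 0.01 and 0.00. A second uridylating enzyme, Tut7, was called lower by its brightest probe (-0.38 ± 0.05, adjusted p = 0.00064), with -0.07 by its other probe. Lin28a was below background on all 6 arrays of the first experiment. Its relative Lin28b was above background on all 8 arrays by its brightest probe and was not called (-0.16 ± 0.07, adjusted p = 0.114).

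Of 14 genes of argonaute loading 6 rose and 3 fell (median 0.08). The Hsp90 chaperone Hsp90ab1 (0.42 ± 0.04) and its co-chaperone Ptges3 (p23; 0.54 ± 0.04, adjusted p = 2.38e-05), which hold the argonaute open for the duplex, rose. Another Hsp90 co-chaperone, Fkbp4, fell (-0.72 ± 0.08, adjusted p = 0.000175), as did Gemin4, a protein found in argonaute complexes (-0.22 ± 0.06).

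Silencing effectors were the largest list, with 7 of 29 higher, 9 lower and 13 not called (median 0.04). The list holds the subunits of the CCR4-NOT deadenylase, which removes the poly(A) tail of the target. Its catalytic subunit Cnot6l was at -2.37, -2.40 and -2.39 in the knockdown and at -1.50, -1.40 and -1.44 in the vector arrays (-0.94 ± 0.05, adjusted p = 1.54e-06). The scaffold Cnot1 (-0.73 ± 0.05) and Cnot2 (-0.72 ± 0.05) fell as well, whereas another catalytic subunit, Cnot8 (0.39 ± 0.05), and Cnot11 (0.53 ± 0.05) rose. Further probes were smaller for Cnot6l (-0.55), Cnot1 (-0.23 and -0.12), Cnot2 (-0.65 and -0.09) and Cnot11 (0.19), and about equal for Cnot8 (0.41). Wtip, a LIM protein of processing bodies, rose by 0.45 ± 0.05. Tnrc6b, the relative of Tnrc6a, stood at 0.07 ± 0.07 (adjusted p = 0.472) and Tnrc6c at 0.32 ± 0.04 (adjusted p = 0.000304).

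In the list of 19 RNA-binding partners 5 rose and 4 fell (median 0.05), Snd1 being one of the latter. Igf2bp1, which shields mRNAs from decay, rose by all 3 of its probes (0.89 ± 0.06 by the brightest, 0.60 and 0.50 by the others). The helicases Ddx3x (0.52 ± 0.05, and 0.22 by its other probe) and Upf1 (0.26 ± 0.04) rose and the repressor Pum2 fell (-0.35 ± 0.05, but -0.09 and -0.03 by other probes). Igf2bp2 fell by 0.19 (± 0.05 SE). Mtdh gave -0.12 ± 0.06 (adjusted p = 0.118). Of 7 tested germline small-RNA genes, known mainly from the piRNA pathway, limma called none, and 1 had an unadjusted p under 0.05.

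**Figure D3:**
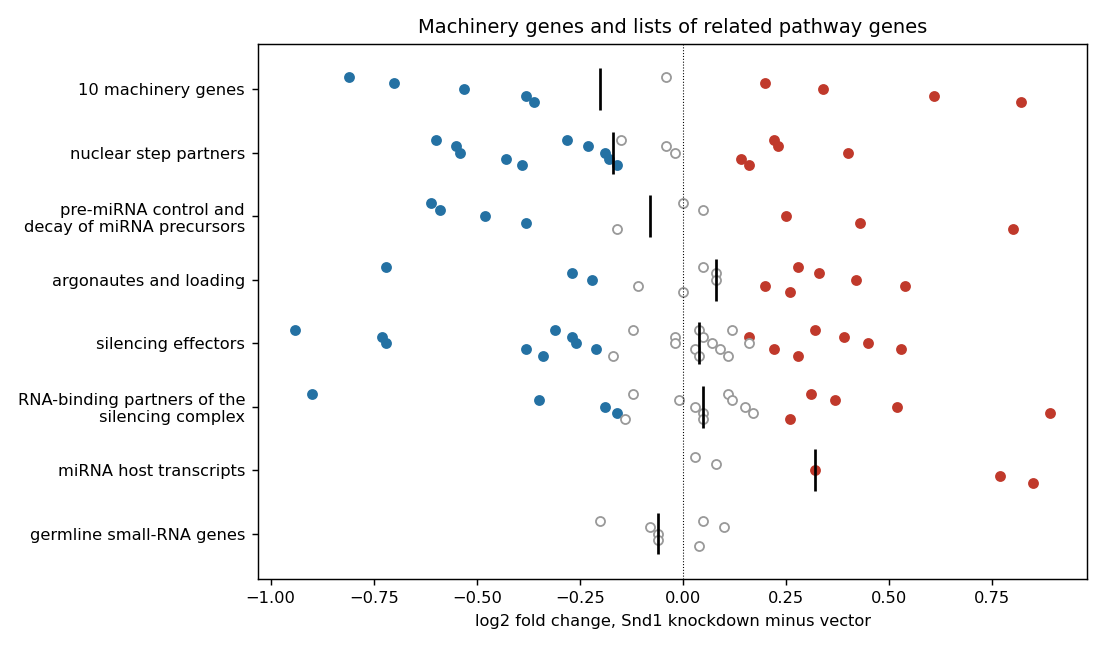
Log2 fold change, Snd1 knockdown minus vector, for the 10 machinery genes and for the tested members of 7 lists of related genes (1 point a gene, brightest probe). Red is called higher, blue called lower, open grey not called, and black bars are medians. Most lists spread to both sides of 0, while 3 of the 5 miRNA host transcripts were called higher and none lower by the probe plotted.

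Long transcripts that carry miRNA hairpins are what this machinery cuts, and 5 of them were tested. Mir22hg, Dnm3os and Mir100hg rose, and the other two were not called by their brightest probe. One of these, Mir99ahg, stood at 0.03 ± 0.05 (adjusted p = 0.678), but its second probe was called lower (-0.37 ± 0.06, adjusted p = 0.0013). Mir22hg was at 0.54, 0.58 and 0.66 in the knockdown and at -0.16, -0.21 and -0.14 in the vector arrays (0.77 ± 0.05, adjusted p = 6.66e-06). Dnm3os was at -2.85, -2.60 and -2.76 against -3.62, -3.83 and -3.32 (0.85 ± 0.13, adjusted p = 0.000729). Mir100hg was at -1.89, -1.77 and -1.67 against -2.26, -1.97 and -2.08 (0.32 ± 0.09, adjusted p = 0.0161). No knockdown value of these 3 overlapped a vector value. Examples of the mature miRNAs that RefSeq (GRCm38.p6) places inside them are shown, with the seed in capitals, because they are products these transcripts can yield.
mmu-miR-22-5p: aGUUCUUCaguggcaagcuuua
mmu-miR-22-3p: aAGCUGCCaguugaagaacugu
mmu-miR-199a-5p: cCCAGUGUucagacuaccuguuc
mmu-miR-199a-3p: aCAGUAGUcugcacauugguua
mmu-miR-214-3p: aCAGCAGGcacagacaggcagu
mmu-miR-100-5p: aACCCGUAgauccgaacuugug
mmu-miR-125b-5p: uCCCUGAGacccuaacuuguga
The miR-22 pair lies in Mir22hg on chromosome 11, miR-199a and miR-214 in Dnm3os on chromosome 1, and miR-100 and miR-125b in Mir100hg on chromosome 9, which also holds let-7a-2, all on the plus strand. No seed is shared between them. Mature miRNAs were not measured, and the level of a host transcript reflects both its synthesis and its cutting.

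The second experiment asked what an Mtdh that binds Snd1 poorly changes under camptothecin. It had 1 array per construct, so no difference has a replicate check. Mtdh itself was at 0.42 with the wild-type construct and at -0.10 with W391D, a difference of -0.52, and its second probe gave -0.18. None of the 10 machinery genes differed by 1.5-fold, and across all genes measured 0.167% did. Differences, W391D minus wild type, ran from -0.33 to 0.14 with a median of -0.02, where the median absolute difference of all genes was 0.08.

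Dicer1 had the largest, at 0.44 with wild-type Mtdh and 0.11 with W391D, but its second probe differed by 0.09 the other way (0.17 and 0.26). Ago2 was at -0.41 and -0.58 and its dimmer probes differed by -0.02 and 0.19. For Ago1 the 3 probes gave -0.15, -0.36 and 0.28, and for Tnrc6a 0.14, -0.23 and -0.03. No gene with several probes that differed by more than 0.1 by its brightest probe kept that sign on all its probes. Drosha was at -1.19 and -1.20, Dgcr8 at 0.12 on both arrays, and Xpo5 at -0.68 and -0.69. Tarbp2 stood at -0.42 and -0.37, Prkra at 0.05 and 0.02, and Mov10 at -0.34 and -0.38.

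The rescue arrays also place the 2 tumour lines side by side, though line, Mtdh status, construct and slide cannot be told apart. Both rescue arrays lay above all 3 vector arrays for 7 of the 10 genes, below them for 2 and among them for Xpo5, where 34.6% of all genes lay above and 27.7% below, or 62.3% together. Dgcr8 is among the 7 only narrowly, with both rescue arrays and vector replicate 1 at 0.12 as printed. From the Cy5 channel alone, these counts were 4 and 1. They were 5 and 2 with median centring, and 6 and 2 without background correction. The order of the levels, by the brightest probe, differed from gene to gene. For Drosha, Prkra, Ago1 and Dicer1 the rescue arrays were highest, the vector arrays lay between and the knockdown arrays were lowest. The difference of the rescue mean from the vector mean was 0.19, 0.24, 0.16 and 0.57 for these genes. The second Dicer1 probe had the same order. The second Drosha probe did not, with the rescue arrays at -0.94 and -0.96, below all vector arrays (-0.71, -0.84 and -0.83), and on the dimmer Ago1 probes the rescue and vector arrays overlapped. For Tarbp2 the order was the reverse, with knockdown at the top and the rescue arrays 0.32 below the vector mean on the log2 scale (rescue minus vector -0.32).

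By their brightest probes Ago2 and Tnrc6a had another order, in which the rescue and knockdown arrays overlapped each other above the vector arrays. Those rescue means exceeded the vector means by 0.49 and 0.38, beside 0.61 and 0.34 for the knockdown. Their other probes did not share this order: on both dimmer Ago2 probes, and on the second Tnrc6a probe, the rescue arrays overlapped the vector arrays. Mov10 stood highest in the vector arrays, with the rescue arrays at -0.33 from the vector mean and the knockdown arrays lowest. Dgcr8 lay between -0.02 and 0.12 on all 8 arrays. The rescue and knockdown differences share the vector arrays and are given side by side only.

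**Figure D4:**
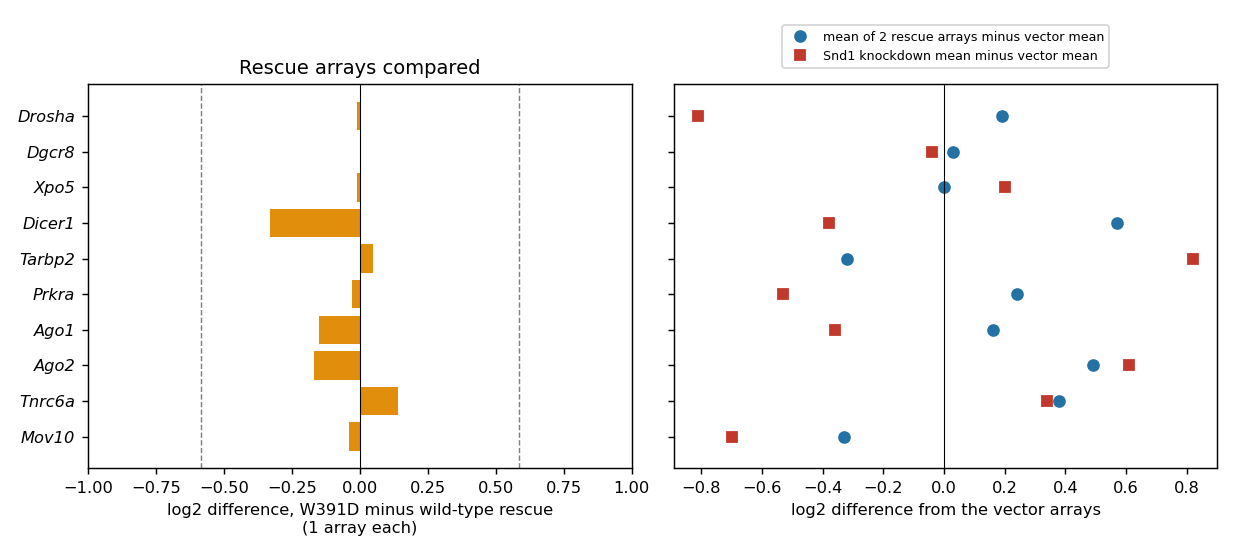
Left, log2 difference of W391D minus wild-type rescue (1 array each) for the 10 machinery genes, with dashed lines at 1.5-fold. Right, the mean of the 2 rescue arrays (blue circles) and of the 3 Snd1 knockdown arrays (red squares), each minus the mean of the same 3 vector arrays. Dicer1 has the largest difference on the left (-0.33), and on the right Tarbp2 lies at -0.32 for the rescue line and at 0.82 for the knockdown.

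How alike the patterns were was described by the Pearson correlation of log ratios over the 8 arrays, between machinery genes and 110 others each of the machinery and its lists. The arrays share the reference RNA and fall into groups, so these values mostly restate group differences and carry no test. Drosha was most like Cnot2 (0.998), Prkra and Ago1 both most like Cnot6l (0.995 and 0.985), Dicer1 like Tut7 (0.986) and Ago2 like Zc3h12a (0.985). For Mov10 it was Adarb1 (0.96), for Tnrc6a Pabpc4 (0.955) and for Xpo5 Tdrd6 (0.89). Dgcr8 had the lowest best match, with Smad3 (0.687).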

How the data were processed

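Total RNA of 8 samples was measured on 2-colour Agilent arrays, with no dye swap. The deposited intensities are raw medians over the pixels of a spot and of its surroundings, read for both dyes by Feature Extraction 11.0.1.1 according to the headers (9.5.3.1 in the submitters' processing notes). The deposited log10 ratio, Cy5 over Cy3, had already been background-subtracted and dye-normalized in that program. The deposited log2 table of the series correlated at 0.9878 to 1 with those ratios.

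Background was corrected by normexp with an offset of 50, followed by loess within each array (limma 3.58.1, R 4.3.3). Control spots and outlier spots (77 to 142 per array) had weight 0. Spots of a probe were averaged. A probe counted as above background where most of its spots did (ties included). Accessions named 27668 of 41174 probes. The brightest probe stood for a gene, and 25674 genes above background on at least 3 of 6 arrays were fitted with lmFit and eBayes, without a block. The fit was tested on simulated data.

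Same-numbered knockdown and vector arrays deviated together (r = 0.597, 0.325 and 0.338). Other pairs on the second slide did so too (0.39 and 0.247), and pairs across the slides were negative (-0.499 to -0.377). Pairing by replicate number can therefore not be told apart from a slide difference. The main fit paired no arrays, and the replicate block was run as an alternative. Per the naming rule, all 10 genes are described with every probe, plus Snd1 and Mtdh and up to 3 called genes a list in each direction. Ago4, Tnrc6b, Tnrc6c, Lin28a, Lin28b, Tut7 and Mir99ahg were added after their values were seen. One item the rule names is not reported here. The members and lists were chosen with earlier results of these data known. The alternatives are named in the closing section.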

Additional observations from a re-analysis of the deposited data

How the results depend on the processing

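The alternatives tried were leaving the background uncorrected, starting from the deposited log ratios or value table, centring on the median, scaling between arrays, using Cy5 alone, stricter and looser detection filters, averaging the probes of a gene, blocks, the second slide alone, array weights, a trended robust eBayes, other thresholds, and each array left out. The counts of machinery genes called (4 higher, 5 lower) moved by over 1.5 times with scaling between arrays (3 lower) and with the mean of probes (2 higher). Called probes fell from 9 to 4 lower with scaling. Other pathway genes went from 29 to 18 higher with median centring, to 16 higher from Cy5 alone, and from 30 to 13 lower with scaling. All genes higher went from 6074 to 3603 from Cy5 alone, and both rescue arrays lay above the vector arrays for 4 genes and below for 1 there, in place of 7 and 2. Signs reversed for Tnrc6a with the mean of probes (-0.12) and, with scaling, for Snd1 (0.09) and Mtdh (0.13). Scaling divides each array's log ratios by 1 factor, which moves genes far from 0 most. As run here, that factor came from the array's median log ratio, not from its spread. The median absolute log ratio was similar on all arrays (0.22 to 0.26). Scaling is therefore no correction of spread, and its counts and reversed signs decide nothing about the genes. Median centring made 43.8% of the calls higher, beside 52.8%. With the replicate block, 4 machinery genes were higher and 5 lower, and 6990 and 5914 of all genes; this pairing changed no call of a machinery gene. The number of arrays limits the precision.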
